A study of Mus musculus with 15 samples.

Results

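5′UTR crosslink sites of tristetraprolin (TTP, encoded by Zfp36) were examined in mouse macrophages by iCLIP, which maps the nucleotide at which UV light joins a protein to its RNA and counts each crosslinked RNA molecule as a cDNA. A site was counted as a 5′UTR site when it lay on the sense strand in a 5′UTR of a protein-coding transcript of GENCODE M21 (mm10), and in no annotated protein-coding coding sequence (CDS) or 3′UTR on that strand. This gave 1506 sites among 162273 in 6 site lists, with 2787 cDNAs in 337 genes. For comparison, 76894 sites lay in 3′UTRs and 3851 in CDS. The cells were bone marrow-derived macrophages of C57BL/6 origin that lack TTP and were immortalised with hcmyc and hRasG12V. They carried a tet-inducible vector for GFP-TTP or for GFP-TTP-AA, whose serines phosphorylated by the kinase MK2 (S52 and S178) are alanines. Cells of all groups received doxycycline for 6 h, and LPS for 0 h, 1 h or 4 h, before UV-C irradiation and purification with a GFP-binding nanobody. The 15 libraries had been summed into 1 list a group. The 1 h lists summed 4 TTP and 3 TTP-AA libraries, and the other lists 2 libraries each. The immortalised lines and the vector, which expresses TTP without its own 3′UTR, limit the cells as a model of primary macrophages.

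TTP is a zinc finger protein known for binding AU-rich elements, built from the pentamer AUUUA, in the 3′UTRs of cytokine mRNAs, where it recruits deadenylases. MK2 phosphorylates it after LPS. The 5′UTR is the stretch between the cap and the start codon that the small ribosomal subunit scans, and it holds the known elements for control of initiation, such as the iron-responsive element of ferritin mRNAs, upstream open reading frames and the A-rich element through which poly(A)-binding protein represses its own mRNA. 5′UTRs are as a rule richer in G and C than 3′UTRs.

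Lists held between 19167 and 174397 cDNAs at between 8052 and 86497 sites. Because each list is a sum, there was no spread between replicates. All intervals below are 95% intervals for counting error, they treat sites as independent although sites of 1 gene share their RNA, and they were not adjusted for the number of comparisons. Differences whose interval did not hold 0 were called. Of 12 macrophage markers 10 had 3′UTR cDNAs, whereas 0 of 4 T cell, 3 B cell, 4 fibroblast, 4 neutrophil and 4 epithelial markers had any, and 0 of these markers had a 5′UTR site. The headers of both 1 h lists carried a mark for the handling of regions in peak calling that the other lists lacked, so an effect of time and one of peak calling cannot be told apart.

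Sequences around the sites with most cDNAs of a gene are shown for 11 genes, which held 880 of the 2787 5′UTR cDNAs (31.6%) and were chosen after their values were seen as examples of A- and U-rich and of G- and C-rich surroundings. They are given as the spliced GENCODE M21 transcript read 5′ to 3′, 14 nt to each side of the site, with the crosslinked nucleotide in capitals. The first 5 genes are examples rich in A and U. Pabpc1 encodes the cytoplasmic poly(A)-binding protein, Polr2a the largest subunit of RNA polymerase II, Sqle squalene epoxidase, Slc20a1 a sodium-phosphate cotransporter and Eif4g2 (DAP5) a translation initiation factor. For Pabpc1 both the site with most cDNAs over all lists and the leading site of TTP-AA at 1 h are given, the latter chosen after its value was seen.
Pabpc1, all lists: acccaaaaaaaauuUacaaaaaaauccgc
Pabpc1, TTP-AA at 1 h: ucggaacacacauuUauuauuaaaaaauc
Polr2a: acuuauuuauucguUaccccuuuucuucu
Sqle: auccugaaacuauuUauuggaagaaguuc
Slc20a1: uauauaauauauacUauuuauuauagcau
Eif4g2: ccaccccauccauuAauauuauucuuuug
On mm10, the Pabpc1 windows lie at chr15:36608835-36608863 and chr15:36608894-36608922 on the minus strand and the Polr2a window at chr11:69758505-69758533 on the minus strand. Those of Sqle (chr15:59315667-59315695) and Slc20a1 (chr2:129199610-129199638) are on the plus strand, and that of Eif4g2 (chr7:111081575-111081603) is on the minus strand. The Polr2a window holds the nonamer UUAUUUAUU, the textbook form of the AU-rich element. Both Pabpc1 windows and those of Sqle and Slc20a1 hold AUUUA, which also lies inside the nonamer.

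The other 6 genes are examples rich in G and C, whose cDNAs lay on 5 or fewer nucleotides each. Fth1, rich in G and C but with cDNAs on 56 positions, and Grcc10 are shown further on. Dennd4a encodes a guanine nucleotide exchange factor for Rab10, Gpd2 the mitochondrial glycerol-3-phosphate dehydrogenase, Ptpn5 a phosphatase known from striatal neurons, Wtap a subunit of the m6A methyltransferase complex, Ampd2 an AMP deaminase and Faap20 a protein of the Fanconi anaemia core complex.
Dennd4a: gcgggggccggcggGgagaauuucucaga
Gpd2: aguggccgggagggGcgucggcgggcggg
Ptpn5: ggggagcggcgcaaGcccguccgggggcg
Wtap: gcggcgggaggagcGcgggggggccggcg
Ampd2: gucuggccgcugaaGucggcgggaguccg
Faap20: uaccagccgcgcucCgccucucucggggc
The windows lie at chr2:57238384-57238412 (Gpd2, plus strand), chr7:47132565-47132593 (Ptpn5, minus), chr17:12992134-12992162 (Wtap, minus), chr3:108086406-108086434 (Ampd2, minus) and chr4:155250191-155250219 (Faap20, plus). The Dennd4a window spans an exon junction, and its site is nucleotide 64811583 of chromosome 9 on the plus strand.

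5′UTR sites were a small part of every list, and their share was highest for TTP at 1 h. At 0 h, 73 of 15994 TTP sites (0.456%, Wilson interval 0.363% to 0.573%) and 102 of 16353 TTP-AA sites (0.624%, 0.514% to 0.757%) lay in a 5′UTR. At 1 h, the values were 490 of 25960 for TTP (1.89%, 1.73% to 2.06%) and 727 of 86497 for TTP-AA (0.840%, 0.782% to 0.904%). At 4 h, they were 78 of 8052 for TTP (0.969%, 0.777% to 1.21%) and 36 of 9417 for TTP-AA (0.382%, 0.276% to 0.529%). The intervals of the 2 proteins overlapped at 0 h and did not overlap at 1 h and 4 h. Per megabase of annotated region, 5′UTRs held 69.3 TTP and 103 TTP-AA sites at 1 h, against 27.8 and 65.4 in CDS and 205 and 1847 in 3′UTRs.

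**Figure D1:**
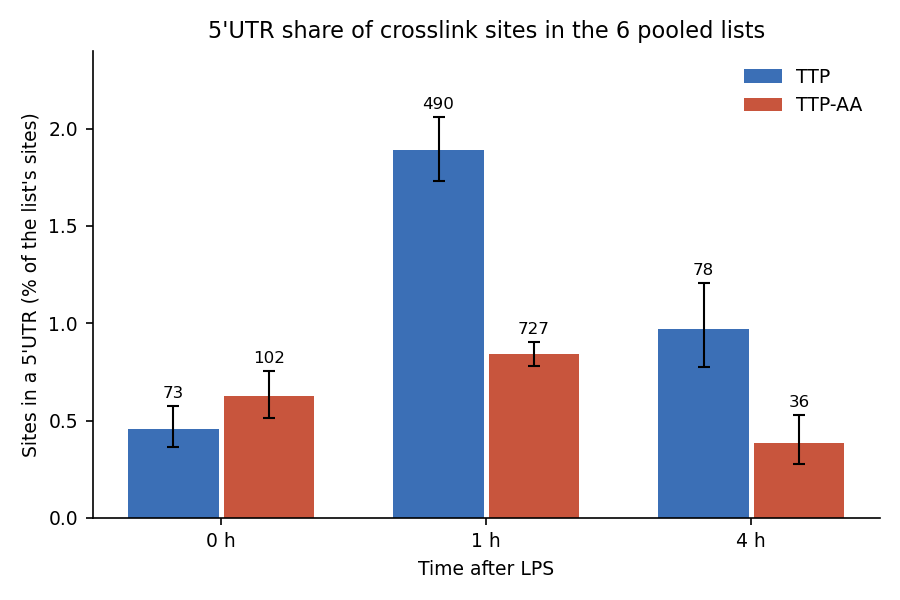
Share of crosslink sites that lay in a 5′UTR (% of the sites of each pooled list, y axis) by time after LPS (x axis) for TTP (blue) and TTP-AA (red), with Wilson 95% intervals as bars and the number of 5′UTR sites above each bar. TTP at 1 h has the highest share (1.89%) and TTP-AA at 4 h the lowest (0.382%).

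The 2 proteins were compared at each time to ask whether the exchange of the MK2 sites goes with a different use of 5′UTRs. TTP-AA minus TTP, the share differed by −1.05 percentage points at 1 h (Newcombe interval −1.23 to −0.876) and by −0.586 points at 4 h (−0.847 to −0.345), so the share was lower for TTP-AA at both times. At 0 h the difference was 0.167 points in the opposite direction (0.00698 to 0.330). At 0 h, Pabpc1 accounted for 21 of 73 TTP and 43 of 102 TTP-AA sites. Without Pabpc1 the 0 h difference was 0.0362 points and was not called, and with sites merged into clusters it was −0.0182 points.

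Within a protein, the share was compared between times. For TTP it rose from 0 h to 1 h by 1.43 points (1.23 to 1.63) and was lower at 4 h than at 1 h, with a difference of −0.919 points (−1.18 to −0.632). For TTP-AA the differences were 0.217 points (0.0716 to 0.343) and −0.458 points (−0.582 to −0.300). These directions hold against all sites of a list. Among 5′UTR, CDS and 3′UTR sites alone, the 5′UTR share over the 3 times was 2.03%, 5.93% and 10.4% for TTP, and 2.23%, 1.13% and 4.26% for TTP-AA. With this denominator the share at 4 h exceeded that at 1 h for both proteins, and the TTP-AA share at 1 h was below that at 0 h, while TTP stayed above TTP-AA at 1 h and 4 h.

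A few genes carried most of the 5′UTR signal. The median gene had 3 cDNAs over all lists, 234 of 337 genes had fewer than 5, and the 50 genes with at least 10 held 67.4% of the 2787 cDNAs. TTP had sites in 17, 190 and 34 genes at 0 h, 1 h and 4 h, and TTP-AA had them in 15, 193 and 14. In all, 255 genes had a 5′UTR site in 1 list and 1 gene, Wtap, had one in all 6. A single cDNA supported 1061 of the 1506 sites (70.5%). In all, 654 sites (43.4%) also lay in an intron of another annotated protein-coding transcript, so that an origin from unspliced RNA cannot be told apart there. Among the 11 genes shown above, such introns held 95.02% of the cDNAs of Pabpc1, 96.6% for Eif4g2 and 86.4% for Slc20a1. They held 100% for Gpd2, Ptpn5, Wtap, Ampd2 and Faap20, and 0% for Polr2a, Sqle and Dennd4a.

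Pabpc1, whose product binds its own 5′UTR, was the leading gene of the 0 h lists and of TTP-AA at 1 h, with 281 cDNAs on 93 positions of a 467 nt 5′UTR. TTP held 26 of its cDNAs at 0 h and 28 at 1 h, TTP-AA held 79 and 148, and both held 0 at 4 h. Per 100000 cDNAs of a list this was 77.4 and 242 at 0 h and 28.2 and 84.9 at 1 h, and the floor of 3 cDNAs stands at 10.3 and 15.7 at 4 h. TTP-AA was thus higher than TTP at 0 h and at 1 h, and the 4 h floors lay below the 0 h and 1 h levels of both proteins. A count of 0 means that no site passed peak calling and sets no upper limit on the cDNAs present at 4 h. The cDNAs ran along the A-rich element, which holds 17 overlapping matches to AAAAA between nucleotides 73 and 130, and on to a U-rich stretch after it. Of the 281 cDNAs, 155 (55.2%) had AAAAA within 20 nt, against 20.1% of the positions of this 5′UTR, and 79 (28.1%) had UUUUU, against 8.57%. The pentamer AUUUA occurs at nucleotides 63 and 122, before and inside the A-rich element, and 139 of the 281 cDNAs (49.5%) had it within 20 nt, against 15.8% of positions. By list this was 16 of 26 TTP and 35 of 79 TTP-AA cDNAs at 0 h, and 13 of 28 and 75 of 148 at 1 h. The leading position of TTP-AA at 1 h, nucleotide 66, held 10 cDNAs there, 2 for TTP at 1 h and 1 for TTP-AA at 0 h. In its 3′UTR, Pabpc1 held 58 cDNAs for TTP-AA and 13 for TTP at 1 h, and 0 for both at 0 h.

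Fth1, the ferritin heavy chain, whose mRNA is repressed through an iron-responsive element in its 5′UTR, had 55 cDNAs in the TTP and 46 in the TTP-AA list of 1 h, and 0 in the other 4 lists. Its 101 cDNAs lay on 56 positions between nucleotides 58 and 224 of the 224 nt 5′UTR, with a median at nucleotide 148. The loop motif CAGUGC starts at nucleotide 99, and its surroundings are given here with the motif in capitals (chr19:9982733-9982760, plus strand, chosen because this element is the known control site of the gene).
Fth1 iron-responsive element: uccugcuucaaCAGUGCuugaacggaac
Within these 28 nt lay 5 cDNAs of TTP-AA and 0 of TTP at 1 h. Of all 101 cDNAs, 12 (11.9%) had the motif within 20 nt, against 16.1% of the positions of the 5′UTR. Most Fth1 cDNAs, like most positions of this 5′UTR, did not have the motif within 20 nt. The profile along the 5′UTR shows cDNAs before and after the element. Fth1 also held 455 cDNAs in the CDS and 143 in the 3′UTR over all lists.

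**Figure D2:**
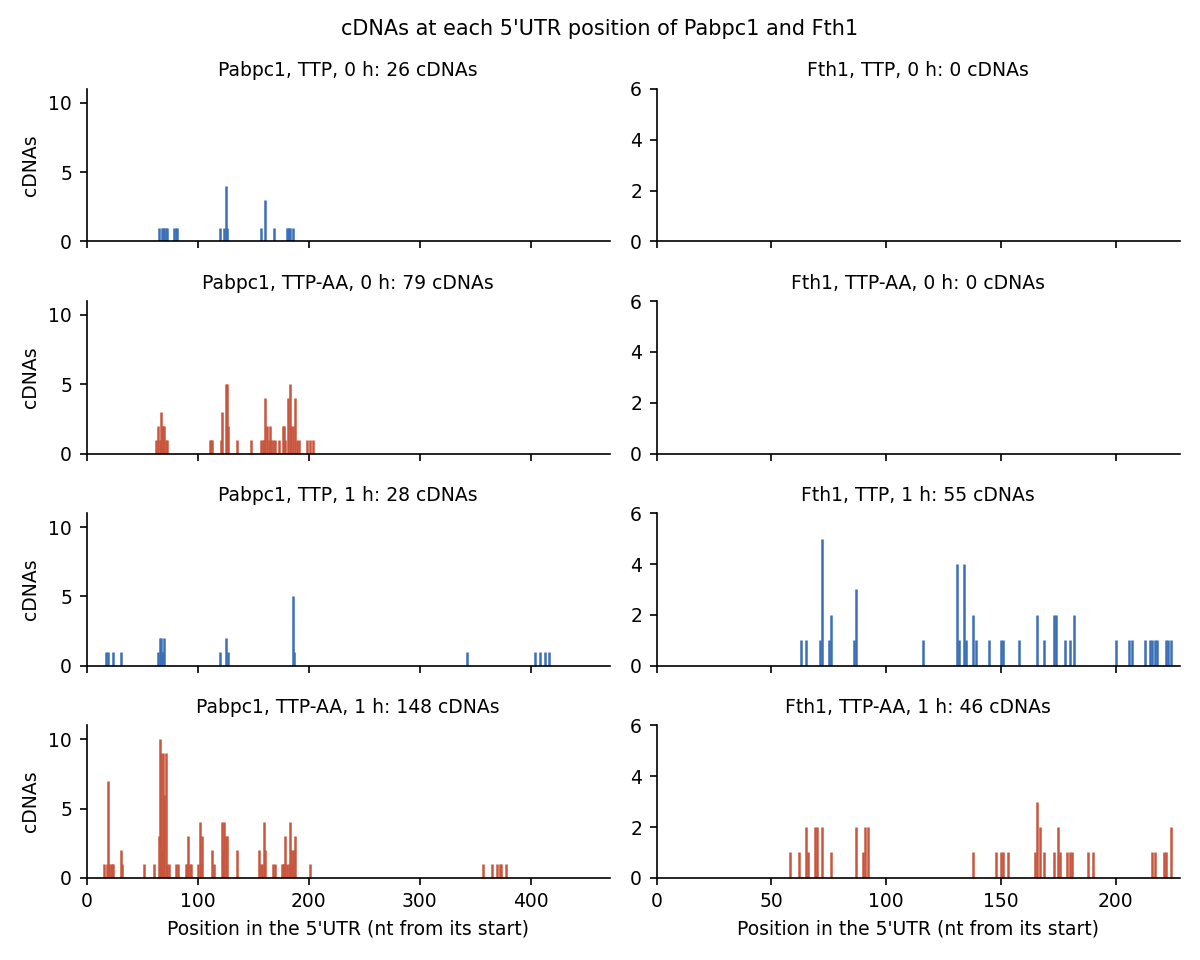
cDNAs (y axis, counts) at each nucleotide of the 5′UTR (x axis, nt from the transcript start) of Pabpc1 (left) and Fth1 (right) in the 0 h and 1 h lists of TTP (blue) and TTP-AA (red). Pabpc1 cDNAs end at nucleotide 204 at 0 h and TTP-AA holds 148 at 1 h, whereas Fth1 has 0 cDNAs at 0 h and 55 (TTP) and 46 (TTP-AA) at 1 h.

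In the order 0 h, 1 h and 4 h, Polr2a held 8, 5 and 0 cDNAs for TTP and 14, 17 and 3 for TTP-AA. All 8 TTP cDNAs at 0 h and all 5 at 1 h had the nonamer UUAUUUAUU within 20 nt, as had 8 of 14 and 11 of 17 for TTP-AA. Over all lists this was 68.1% of 47 cDNAs, against 7.97% of the positions of the 414 nt 5′UTR. Sqle, the monooxygenase of the cholesterol pathway, held 3 cDNAs of TTP and 25 of TTP-AA, all at 1 h. Of these, 3 and 19 had AUUUA within 20 nt, against 4.84% of positions. Slc20a1 held 3 TTP-AA cDNAs at 0 h and 19 at 1 h and no TTP cDNA, and all 22 had AUUUA within 20 nt, against 19.6% of positions. Eif4g2 held 5 TTP cDNAs at 0 h, and 9 of TTP and 44 of TTP-AA at 1 h. These lay in the 5′UTRs of 2 transcripts. That of Eif4g2-213 has no AUUUA and 1 UUAUU, which lay within 20 nt of all 5 TTP cDNAs at 0 h and of 28 of 34 TTP-AA cDNAs at 1 h, with 0 TTP cDNAs at 1 h. The 9 TTP cDNAs and the other 10 TTP-AA cDNAs of 1 h lay in that of Eif4g2-203, and 0 of them had UUAUU within 20 nt. BC005537, a gene without an assigned function, held 5 and 17 cDNAs at 0 h and 20 and 44 at 1 h along a 1724 nt 5′UTR, and 3.49% of its 86 cDNAs had AUUUA within 20 nt, against 4.29% of positions. In the 5′UTR of Ibtk, an inhibitor of Bruton tyrosine kinase, TTP had 2 cDNAs and TTP-AA 18 at 1 h, of which 10 of 20 had AUUUA within 20 nt, against 22.2% of positions.

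In the GC-rich examples, cDNAs sat on 1 or a few nucleotides. In the order 0 h, 1 h and 4 h, Dennd4a had 0, 56 and 18 cDNAs for TTP and 4, 22 and 0 for TTP-AA, and 89 of these 100 were on 1 nucleotide. Gpd2 had 24 and 17 cDNAs at 1 h and 16 and 5 at 4 h, 61 of 62 on 1 nucleotide, and 0 at 0 h. All 38 Ptpn5 cDNAs, 22 of TTP and 8 of TTP-AA from the 1 h lists and 8 of TTP from 4 h, were on 1 nucleotide. Wtap had 10, 23 and 10 cDNAs for TTP and 7, 16 and 25 for TTP-AA, with 52 of 91 on 1 nucleotide. Its 25 cDNAs made up 32.9% of all 5′UTR cDNAs of TTP-AA at 4 h. Ampd2 held 43 and 33 cDNAs at 1 h and Faap20 held 39 and 14, each on at most 5 nucleotides in all lists. The overlapping genes Cmc4 and Mtcp1, which share a 5′UTR, held 32 and 15 at 1 h and 14 and 0 at 4 h. Enah, a regulator of actin filaments, held 13 cDNAs for TTP at 4 h and 0 for TTP-AA, and 5 and 11 at 1 h.

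Across the 50 genes with at least 10 cDNAs, 24 had at least 50% of their cDNAs on 1 position, a split made after the values were seen and given without a test. In these 24 genes, the mean G and C content within 20 nt of the cDNAs had a median of 78.8% (56.7% to 95.1%), and 20 of them had no uridine at any crosslinked position. In the other 26, the median was 43.3% (19.0% to 83.1%). Of the 24, 17 had no cDNA in their 3′UTR or CDS in any list, compared with 11 of 26. At 1 h, 20 of the 24 had the larger share of the list's cDNAs in TTP, compared with 11 of 26.

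Some 5′UTR sites coincide with annotated non-coding RNAs. The 129 cDNAs of Grcc10, the second largest total, lay within 35 nt, and 127 of them fell in the exon of Rnu7, the U7 small nuclear RNA that guides histone pre-mRNA processing. The site with most of them is shown with 14 nt to each side (chr6:124741250-124741278, minus strand).
Grcc10 and Rnu7: cagcucuuuuagaaUuugucuagcagguu
Over the 3 times, Grcc10 held 20, 23 and 0 cDNAs for TTP and 18, 51 and 17 for TTP-AA, and 0 in its CDS and 3′UTR in all lists. All 16 cDNAs of Ccnb1ip1 lay in Rpph1, the RNA component of RNase P, 11 of them for TTP at 1 h and 5 for TTP-AA at 4 h. In sum 72 sites (4.78%) lay in such exons. To which RNA these cDNAs belong cannot be told apart. Without these sites, the difference between the proteins was 0.181 points before LPS, and −1.01 and −0.714 points at 1 h and 4 h.

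The sequence around all 5′UTR sites was compared with that around CDS and 3′UTR sites of the same list to ask whether binding in 5′UTRs uses the same elements. For TTP-AA at 1 h, 123 of 727 5′UTR sites (16.9%, 14.4% to 19.8%) had AUUUA within 20 nt in the transcript, against 23.5% of CDS sites and 34.6% of 3′UTR sites. The difference between 5′UTR and 3′UTR sites was −17.6 points (−20.2 to −14.7). AUUUA was searched on the sense strand alone, and 2.12% of all annotated 5′UTR positions have it within 20 nt, or 3.51% of the positions of the 5′UTRs with a TTP-AA site. The 123 sites lay in 25 genes. For TTP at 1 h, the share was 20 of 490 (4.08%, 2.66% to 6.22%), in 5 genes, against 37.7% of 3′UTR sites and 2.16% of the positions of its 5′UTRs. The intervals of the 2 proteins thus did not overlap in 5′UTRs, where TTP-AA had the higher share, while in 3′UTRs it was TTP that had the higher share. At 0 h, AUUUA was near 26.0% of 73 TTP sites in 2 genes and 27.5% of 102 TTP-AA sites in 4 genes. At 4 h it was near 3 of 78 (3.85%) and 0 of 36, the latter with an upper bound of 9.64%.

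Uridine, the base at which UV-C light crosslinks most readily, was the crosslinked nucleotide at 356 of 727 TTP-AA 5′UTR sites at 1 h (49.0%), 50.9% of CDS sites and 61.6% of 3′UTR sites. The difference between 5′UTR and 3′UTR sites was −12.6 points (−16.3 to −8.98). Uridine makes up 22.2% of the positions of these 5′UTRs. For TTP at 1 h uridine stood at 172 of 490 sites (35.1%, 31.0% to 39.4%), with guanine at 28.4%. At 4 h, TTP had uridine at 11 of 78 sites (14.1%) and guanine at 46.2%, and TTP-AA had uridine at 12 of 36 (33.3%). Before LPS the proteins were close, with uridine at 41 of 73 TTP sites (56.2%) and 56 of 102 TTP-AA sites (54.9%). A run of 5 uridines lay within 20 nt of 24.8% of TTP-AA and 10.2% of TTP 5′UTR sites at 1 h. Among pentamers within 20 nt of at least 20 sites and in at least 10 genes, UAUUU had the highest ratio of sites to positions for TTP-AA at 1 h (4.37), with AUUUA at rank 7 of 300 (3.48), whereas for TTP it was UUUUU (2.91). The share of positions behind these ratios was 5.82%, 4.86% and 3.50% in turn. For AUUUA it differs from the 3.51% given above, so the ratio depends on the background used.

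**Figure D3:**
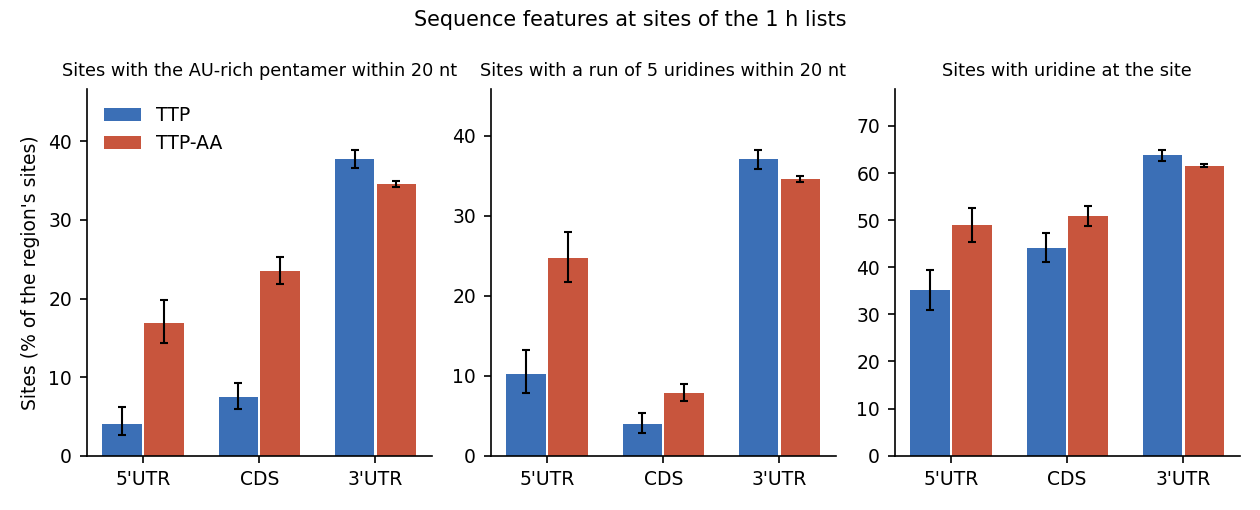
Share of sites (% of the sites of a region, y axes) with the AU-rich pentamer within 20 nt (left), with a run of 5 uridines within 20 nt (middle) and with uridine at the site (right), for 5′UTR, CDS and 3′UTR sites of TTP (blue) and TTP-AA (red) at 1 h, with Wilson 95% intervals as bars. The TTP 5′UTR sites have the pentamer at 4.08% and the TTP-AA 5′UTR sites at 16.9%, while both proteins are above 34% in 3′UTRs.

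In the 1 h lists, the median G and C content was higher at TTP than at TTP-AA 5′UTR sites, and higher at sites with more cDNAs. The measure and the classes of cDNA number were chosen after the values were seen, and the values are a description without a test. At 1 h, the median G and C content within 20 nt of a 5′UTR site was 68.3% for TTP and 48.8% for TTP-AA, against 31.7% and 29.3% at 3′UTR sites and 58.5% over all 5′UTR positions. For TTP it was 63.4% at 338 sites with 1 cDNA, 71.4% at 110 sites with 2 to 4 and 78.0% at 42 sites with 5 or more. For TTP-AA the values were 43.9% at 544 sites, 54.9% at 146 and 75.6% at 37. At least 70% G and C was found at 227 of 490 TTP sites (46.3%) and 159 of 727 TTP-AA sites (21.9%). Of the sites with 5 or more cDNAs, 11.9% (TTP) and 21.6% (TTP-AA) had uridine at the site.

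**Figure D4:**
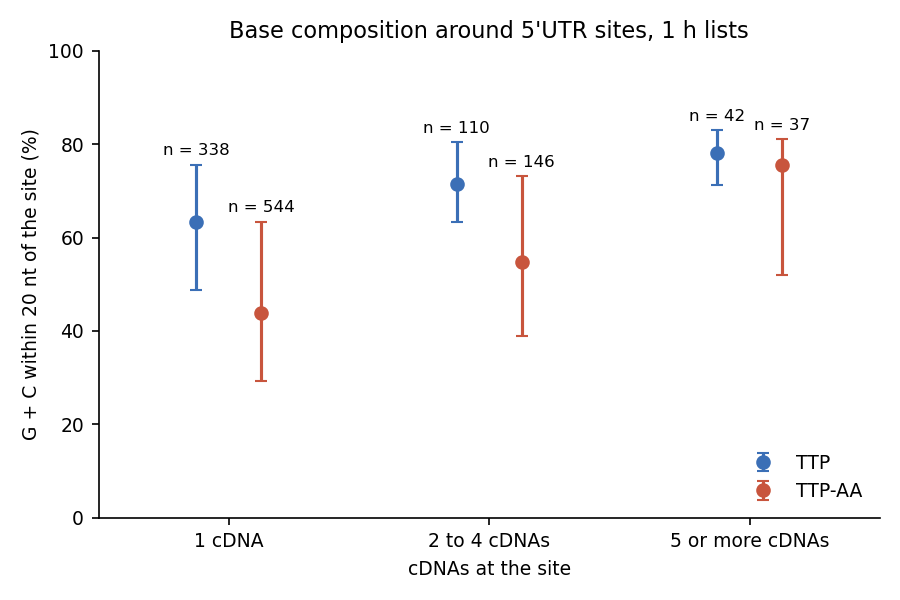
G and C content within 20 nt of the 5′UTR sites (%, y axis) by the number of cDNAs at the site (x axis) for TTP (blue) and TTP-AA (red) at 1 h, with points at the median, bars from the lower to the upper quartile and n as the number of sites. The medians of TTP go from 63.4% to 78.0% and those of TTP-AA from 43.9% to 75.6%.

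The 1 h sites were spread over the 5′UTR, with a larger share near the start codon than that of positions. For TTP-AA at 1 h, 152 of 727 sites (20.9%, 18.1% to 24.0%) lay within 50 nt upstream of the start codon, and 89 (12.2%) in the first 50 nt, while 11.8% of the positions of the same 5′UTRs lie in each of these windows. For TTP at 1 h the shares were 24.5% (20.9% to 28.5%) and 16.1%, against 11.7% of positions. At 0 h, 8 of 73 sites of TTP and 3 of 102 of TTP-AA were within 50 nt of the start codon. 5′UTRs with a site were long, with a median of 326.5 nt for TTP and 332 nt for TTP-AA at 1 h, against 168 nt over 20916 genes, and a longer 5′UTR offers more positions.

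Positions were shared between the proteins less often in 5′UTRs than in 3′UTRs at 1 h. Of the TTP sites in 5′UTRs, 210 of 490 (42.9%, 38.5% to 47.3%) had a TTP-AA 5′UTR site within 15 nt, whereas 5188 of 6775 (76.6%, 75.6% to 77.6%) in 3′UTRs had a TTP-AA 3′UTR site there, a difference of −33.7 points (−38.1 to −29.2). The share was lower still in CDS, where 349 of 992 TTP sites (35.2%) had a TTP-AA CDS site within 15 nt. As a share of the TTP-AA sites, 255 of 727 (35.1%) in 5′UTRs and 21.5% in 3′UTRs had a TTP site within 15 nt. The TTP-AA list held 61183 3′UTR sites but 727 5′UTR sites, so a TTP site had more TTP-AA neighbours to meet in 3′UTRs. At the same nucleotide, 114 sites were shared, 23.3% of the TTP and 15.7% of the TTP-AA 5′UTR sites. At 0 h the direction was the opposite, with 48 of 73 TTP sites in 5′UTRs (65.8%) and 1393 of 3359 in 3′UTRs (41.5%) having a TTP-AA site within 15 nt, a difference of 24.3 points (12.7 to 34.3). Without Pabpc1 the 0 h difference was 10.5 points (−2.89 to 23.5) and was not called, while that of 1 h was −35.3 points. At 4 h it was −5.06 points (−14.2 to 6.14) and was not called.

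Genes with a 5′UTR site were asked whether they also had a 3′UTR site in the same list. At 1 h this was so for 122 of 193 TTP-AA genes (63.2%, 56.2% to 69.7%) and 51 of 190 TTP genes (26.8%, 21.05% to 33.6%), a difference of 36.4 points (26.7 to 45.1). Over all genes with an annotated 5′UTR, 21.3% had a 3′UTR site for TTP-AA and 6.19% for TTP. At 0 h the counts were 2 of 17 TTP and 1 of 15 TTP-AA genes, beside all-gene shares of 3.51% (TTP) and 4.26% (TTP-AA). After 4 h of LPS the counts were 0 of 34 TTP and 0 of 14 TTP-AA genes, with upper bounds of 10.2% and 21.5%. The all-gene shares in these last lists, 0.607% (TTP) and 0.947% (TTP-AA), lay below those bounds. The zeros thus cannot tell whether genes with a 5′UTR site differed from all genes there. A CDS site was found for 37 of the 193 TTP-AA genes and 19 of the 190 TTP genes at 1 h.

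Shares of cDNAs in single 5′UTRs were compared between TTP-AA and TTP at 1 h. Each 3′UTR, CDS or 5′UTR that held 10 cDNAs or more in the 2 lists together was called at a 4-fold difference in its share of the list's cDNAs, with counts under 3 raised to 3, and there was no replicate check. Of 2194 such gene regions, 35.6% were higher in TTP-AA and 0.912% were higher in TTP. Of the 43 5′UTRs among them, 1 (2.33%) was higher in TTP-AA and 10 (23.3%) were higher in TTP. The median ratio, TTP-AA over TTP, was 0.569 over 5′UTRs, 1.57 over 85 CDS and 3.41 over 2066 3′UTRs. Against a list at 3 or fewer cDNAs, a call for TTP-AA needs at least 22 cDNAs. For TTP, 7 cDNAs were enough against 3 (Nfic), and against 0 the entry rule of 10 cDNAs sets the limit. Calls for TTP-AA are thus harder to reach in 5′UTRs with few cDNAs. The scaling decides the direction. Without scaling to the list totals, 8 of the 43 5′UTRs were at least 4-fold higher in TTP-AA (Sqle, Slc20a1, Pabpc1 and Eif4g2 among them) and 0 in TTP, and scaled to 5′UTR, CDS and 3′UTR cDNAs alone 0 were higher in TTP-AA and 25 in TTP. Over all 2194 gene regions, the counts for TTP-AA and TTP were 1629 and 3 without scaling. They were 17 and 116 when scaled to 5′UTR, CDS and 3′UTR cDNAs. The median ratio of raw counts was 1.00 for 5′UTRs and 5.99 for 3′UTRs.

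The 5′UTR called higher in TTP-AA was that of Sqle, with a share ratio of 4.74 (exact interval 1.45 to 24.5). Pabpc1 had a ratio of 3.01 (2.00 to 4.68) and Eif4g2, summed over both 5′UTRs, of 2.78 (1.34 to 6.48), and both intervals lay above 1. Slc20a1, at 0 in TTP, had a ratio of 3.60 with that 0 raised to 3, and its exact interval began at 2.66. Polr2a had a ratio of 1.94 (0.685 to 6.71) and BC005537 of 1.25 (0.723 to 2.24), with intervals that held 1. The 10 5′UTRs called higher in TTP were those of Ccnb1ip1, Pgp, Runx1t1, Faap20, Ptpn5, Pnck, Dennd4a, Eif3g, B830017H08Rik and Nfic. TTP over TTP-AA, Faap20 had a share ratio of 4.89 (2.60 to 9.76), Ptpn5 of 4.83 (2.07 to 12.6) and Dennd4a of 4.47 (2.69 to 7.69). Ccnb1ip1, at 0 in TTP-AA, had a ratio of 6.44 with that 0 raised to 3, and its exact interval began at 4.41. Just inside the threshold lay Nfic (7 cDNAs in TTP and 3 in TTP-AA), whose ratio of 4.10 had an interval of 0.936 to 24.6 that held 1, and just outside it Cmc4/Mtcp1 (32 and 15). Fth1 had a TTP-AA over TTP ratio of 0.476 (0.315 to 0.717), Gpd2 of 0.403 (0.203 to 0.782) and Wtap of 0.396 (0.196 to 0.783), whose intervals lay below 1 without reaching the threshold.

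**Figure D5:**
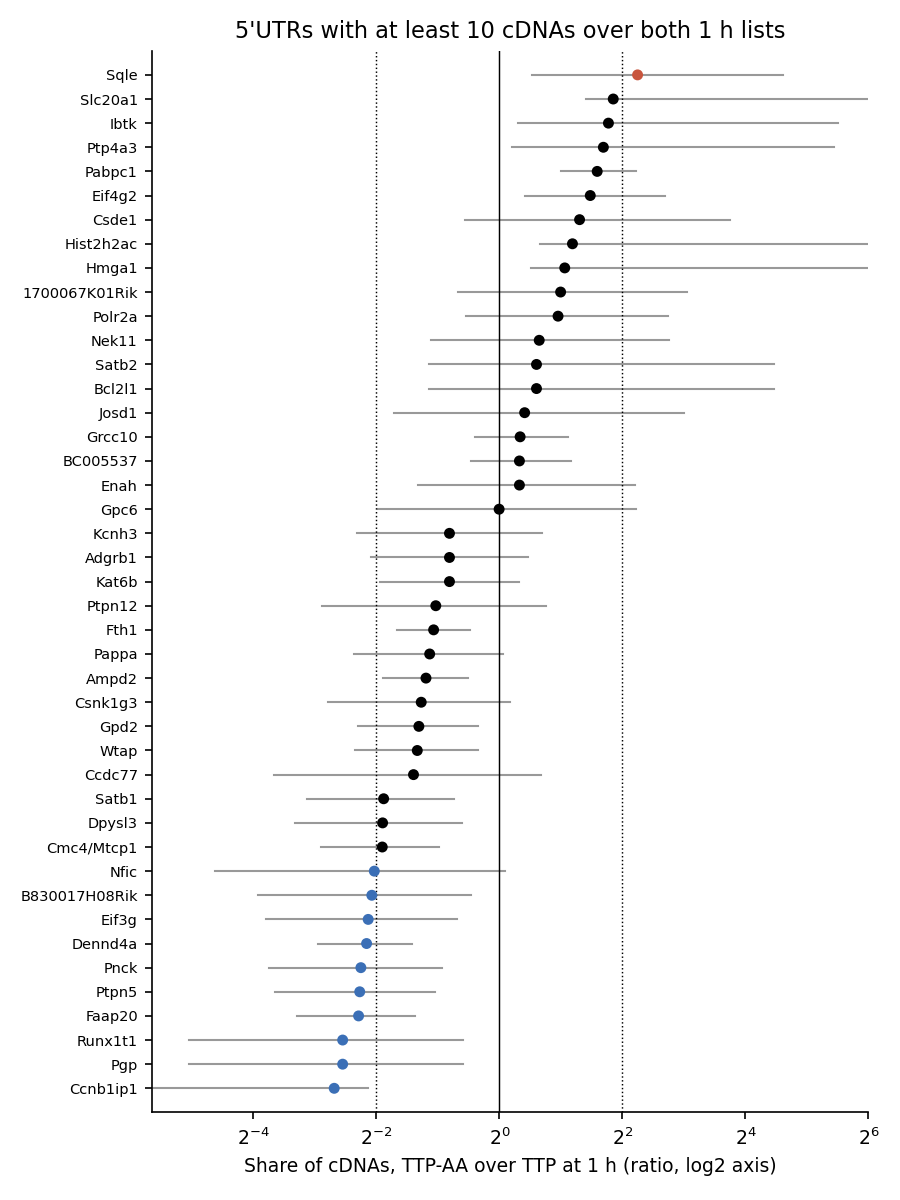
Ratio of the shares of cDNAs, TTP-AA over TTP at 1 h (x axis, log2 scale), for the 43 5′UTRs with at least 10 cDNAs over both lists (rows), with counts under 3 raised to 3 for the points and exact conditional 95% intervals of the unraised counts as lines, cut at the axis ends. Red marks the 1 5′UTR at 4-fold or more for TTP-AA, blue the 10 for TTP, the solid line a ratio of 1 and the dotted lines 4-fold.

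Gene lists for pathways with known 5′UTR control or an LPS response were read against all genes, of which 1.63% had a 5′UTR site in any list. Among 103 ribosomal proteins and translation factors, whose mRNAs carry a terminal oligopyrimidine tract at the 5′ end, 13 (12.6%) had one, 11 in TTP-AA and 5 in TTP at 1 h. Apart from Pabpc1, their counts were low: Rps27l and Rplp1, for example, held 6 and 5 cDNAs for TTP-AA at 1 h and 0 for TTP, Npm1 held 2 and 3, and Rpl4 held 3 and 2. The abundance of these mRNAs was not measured in these lists and its part was not tested. Among 21 mRNAs with known 5′UTR control, 3 (14.3%) had a site (Pabpc1, Fth1 and Ftl1), the last with 1 cDNA.

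The cytokine mRNAs, the best known targets of TTP, had few 5′UTR cDNAs. Of 24 LPS-induced cytokines and chemokines, 3 (12.5%) had a site, all for TTP at 1 h, against 0.914% of all genes in that list. The part of mRNA abundance in this was not tested. Cxcl2, a neutrophil chemokine, held 7 cDNAs there and 0 in the other lists, beside 258 cDNAs for TTP and 2536 for TTP-AA in its 3′UTR at 1 h. Tnf held 3 cDNAs for TTP, beside 727 and 1673 in its 3′UTR, and Ccl2 held 2, beside 81 and 913. Their 5′UTRs held 0 cDNAs for TTP-AA, where the floor of 3 cDNAs stands at 1.72 per 100000 cDNAs of that list. The lists hold only sites that passed peak calling, so a 0 sets no upper limit on the cDNAs present. Ier3, a feedback regulator of NF-κB signalling, held 8 cDNAs for TTP-AA at 1 h in a 35 nt 5′UTR, 2 of them 3 nt from the start codon, beside 87 cDNAs for TTP and 159 for TTP-AA in its 3′UTR. Nfkbie, an inhibitor of NF-κB, held 2 for TTP. Ier3 and Nfkbie were the 2 with a site among 21 feedback and NF-κB inhibitors (9.52%, against 1.63% of all genes). Of 21 immediate early transcription factors, 0 had a 5′UTR site.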

How the data were processed

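Each of the 6 deposited lists gives 1 crosslink site per row, and the score in its value column is, judged by the values and per the file headers, a whole number of unique cDNAs with the strand as its sign. Per the methods of the study, the authors split reads by barcode, removed PCR duplicates by 4 random bases, mapped to mm10 with Bowtie (Ensembl 75), took the nucleotide before the read as the site, added up each group's libraries, and retained sites at an FDR of 0.05 in iCount (100 permutations, neighbourhood 15 nt). The pooled lists allow counting error alone.

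Here, sites were placed on GENCODE M21 (GRCm38, 1-based) with the priority 3′UTR, CDS, 5′UTR, non-coding exon, intron, intergenic. This release is later than that of the authors. Motifs were sought in the 41 nt of the spliced transcript around a site. Shares have Wilson and differences Newcombe 95% intervals, and ratios exact conditional intervals, with a floor of 3 counts. Named genes were the 10 with most 5′UTR cDNAs in each 1 h list, the 5 in each other list, and genes of fixed lists with at least 5. Other named genes were chosen after their values were seen. Members, lists and rules were chosen with earlier results of these data known. The steps ran in Python 3.11.15 with numpy 2.4.6, pandas 2.3.3, scipy 1.17.1 and matplotlib 3.10.9 and were tested on simulated data. Values of some single genes are not reported here.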

Additional observations from a re-analysis of the deposited data

Results flagged for a closer look

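The difference between the proteins in the 5′UTR share of sites, TTP-AA minus TTP, changed with the time after LPS. From 0 h to 1 h it moved by −1.21 percentage points (interval −1.46 to −0.980), from 0 h to 4 h by −0.754 points (−1.06 to −0.464), and from 1 h to 4 h by 0.461 points (0.149 to 0.763). These results stand out because the interval of each change did not hold 0. The direction of the change from 1 h to 4 h depends on the denominator. Among 5′UTR, CDS and 3′UTR sites alone, the difference was −4.80 points at 1 h and −6.14 at 4 h. Under every other alternative it was more negative at 1 h than at 4 h, by least with sites of at least 2 cDNAs (−0.721 and −0.666). The handling of regions named in the headers differed between the 1 h lists and the others, and its part was not tested.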

How the results depend on the processing

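Over 14 results, 86 values were computed under alternatives: 69 kept their direction and side of the threshold, 9 moved, 4 lost the call and 4 turned in direction. The 0 h difference between the proteins was −0.0182 points with clusters, 0.202 among 5′UTR, CDS and 3′UTR sites and 0.0362 without Pabpc1, an alternative chosen after seeing the data, and none of these 3 was called. Among 5′UTR, CDS and 3′UTR sites, the step from 1 h to 4 h was 4.47 points for TTP and 3.13 for TTP-AA, and that from 0 h to 1 h was −1.10 for TTP-AA. With sites of at least 2 cDNAs, the TTP step from 1 h to 4 h was −0.400 and the TTP-AA step from 0 h to 1 h was 0.0603, neither called. The TTP-AA share near the start codon was 37.0% within 100 nt, 17.3% over cDNAs and 14.2% with at least 2 cDNAs. 5′UTRs called higher in TTP-AA and in TTP numbered 0 and 25 when scaled to mRNA cDNAs, 8 and 0 without scaling, and 9 and 21 at 2-fold, out of 43. Over all 2194 gene regions the counts were, in the same order, 17 and 116, 1629 and 3, and 1787 and 50. The smaller denominator, the wider window and the lower threshold define these alternatives, and the cause of the other moves was not tested.

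No paired analysis was possible because the lists are sums over libraries and their columns carry no replicate number, and for the same reason no library could be left out. The genomic window in place of the spliced transcript was not run for AUUUA. Depth limits the 4 h lists most, where 36 to 78 sites give wide intervals.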
